A study of Homo sapiens with 30 samples.

Results

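The protein-coding genes of human chromosome 19 whose symbol is ZNF followed by a number encode C2H2 zinc finger proteins. Their transcripts were counted in HT29, a human cell line established from a colorectal adenocarcinoma, 24 h after the addition of herbal formula extracts. Of 247 such genes in the count table, 161 averaged at least 1 CPM (CPM, counts scaled to a common library total) over all 30 RNA-seq libraries and are the members described here. The other 86 fell below that limit, and 24 of these had no count in any library. ZNF221, at 1.02 CPM, was the member nearest the limit, and ZNF615, at 0.954 CPM, the nearest gene below it. No measured difference between groups entered this rule, though it was set with earlier results of these data known.

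Soshiho-tang, Yijin-tang, Okbyeongpung-san and Soyo-san were each extracted with 70% ethanol and, per the labels, applied at 20, 100 and 500 µg/mL. There were 3 libraries for each Soshiho-tang and Yijin-tang dose, 2 for each Okbyeongpung-san dose, 1 for each Soyo-san dose and 3 for vehicle, so 13 groups in all. Vehicle cells received DMSO, at 0.1% in the labels but 2% in the series' description. That description also says doses were lowered where an extract was toxic, so the true doses may differ from the labels. The Soyo-san libraries and 1 of the 2 Okbyeongpung-san libraries at each dose belong to batch D, and all other libraries, vehicle included, to batch E. The vehicle libraries carry library names of a separate set, so the vehicle and that set cannot be told apart in any comparison with vehicle. Nothing in the labels tells whether replicates came from separate cultures, so the spread that p-values measure, between these libraries, may be technical.

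Library totals ran from 18.5 M to 36.2 M counts. Mitochondrial genes took 9.06 to 12.9% of counts in extract libraries and 11.5 to 13.9% in vehicle libraries. Pairs of vehicle libraries differed more than pairs of extract libraries, with chi-square values over all genes, divided by their degrees of freedom, of 11.2 to 20.6 for vehicle pairs, 10.4 for the 100 µg/mL Okbyeongpung-san pair and 2.41 to 7.02 for the other extract pairs. This measure grows with depth, and the vehicle libraries held 25.4 M to 36.2 M counts. No pair differed by less than sampling noise. Of the epithelial markers KRT8, KRT18, KRT20, EPCAM, CDH1, VIL1 and LGALS4 were each above 100 CPM in every library. CDX2 (2.62 to 4.7 CPM), CDX1 (0.375 to 1.22 CPM) and CEACAM5 (5.25 to 11.8 CPM) were much lower. These levels were not compared with those of other colorectal lines. PTPRC, CD3E, ALB, APOB, VWF and COL1A2 stayed under 0.3 CPM, and COL1A1 and PECAM1 reached 2.49 and 2.04 CPM.

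C2H2 zinc fingers are short repeats in which a pair of cysteines and a pair of histidines hold a zinc ion, and rows of such fingers read DNA sequence. Many of the chromosome 19 genes also encode a KRAB domain, which recruits the corepressor TRIM28 and through it the histone methyltransferase SETDB1 and HP1 proteins. KRAB zinc finger proteins are best known for silencing transposable elements, and the family grew by tandem duplication into gene clusters, many of them on chromosome 19. A pattern of the conserved KRAB residues was found in the coding sequence of 123 members and was absent from 38. Absence of the pattern says only that these letters were not found, and a diverged domain would be missed. Members had a median of 12 fingers (0 to 31), and those without the pattern a median of 9.

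The members fell into groups of contrasting base composition. The longest annotated transcript had a median GC content of 42.4% for members with a KRAB match and 58.3% for members without one, against 59.9% for the other protein-coding genes of the chromosome. The coding sequences below run from the first cysteine codon of one finger to the last histidine codon of the next, and the capitals mark the 21 bases that encode the linker between the fingers. They are shown because ZNF699, ZNF100 and ZNF780A are among the members that were higher with extract, and ZNF444 and ZNF865 among those that were lower. All are read from GENCODE 29 transcripts (GRCh38), each within a single exon.
ZNF699 (chr19:9296501-9296647, minus strand): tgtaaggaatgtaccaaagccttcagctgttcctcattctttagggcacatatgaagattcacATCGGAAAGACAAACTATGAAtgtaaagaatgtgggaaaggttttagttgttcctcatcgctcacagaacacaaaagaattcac
ZNF100 (chr19:21727547-21727693, minus strand): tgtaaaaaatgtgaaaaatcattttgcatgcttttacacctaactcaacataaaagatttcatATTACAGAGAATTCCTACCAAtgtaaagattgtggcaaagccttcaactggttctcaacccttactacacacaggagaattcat
ZNF780A (chr19:40075797-40075943, minus strand): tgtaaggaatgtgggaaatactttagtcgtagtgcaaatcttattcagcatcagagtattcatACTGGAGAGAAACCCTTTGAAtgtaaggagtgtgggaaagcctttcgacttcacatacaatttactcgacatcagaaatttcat
ZNF444 (chr19:56159758-56159904, plus strand): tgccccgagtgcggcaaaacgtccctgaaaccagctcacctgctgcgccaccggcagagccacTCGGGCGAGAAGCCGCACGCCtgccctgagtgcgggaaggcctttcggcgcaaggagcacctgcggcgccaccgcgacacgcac
ZNF865 (chr19:55614294-55614440, plus strand): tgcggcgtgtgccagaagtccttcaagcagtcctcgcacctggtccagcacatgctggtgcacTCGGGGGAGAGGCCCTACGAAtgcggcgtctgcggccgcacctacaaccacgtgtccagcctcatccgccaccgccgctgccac
The first 3 stretches held 38.8%, 33.3% and 37.4% G or C, and the last 2 held 70.1% and 66.7%. Aligned base for base over their 147 bases, ZNF699, ZNF100 and ZNF780A shared 59.9 to 61.2% identical positions with each other, ZNF444 and ZNF865 shared 55.1%, and pairs across these sets shared 38.8 to 47.6%. The sets were picked by direction of change and differ in base composition, whose part in these shares was not tested. These few stretches therefore do not tell whether sequence goes with the change.

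Members were mostly low to moderate in level. Their median was 7.33 CPM, against 17.3 CPM over all genes tested, 65 reached 10 CPM and 5 reached 50 CPM. Per kilobase of exon, ZNF146 stood highest at 47.3 CPM per kb. It encodes a protein made of little more than fingers, known as OZF and reported as overexpressed in colorectal cancers. ZNF587 (20.2), ZNF787 (17.1), ZNF581 (12.9), ZNF428 (12.1) and ZNF121 (11.0 CPM per kb) came next, and ZNF121 encodes a nuclear protein that binds MYC. ZNF146 averaged 209 ± 6.95 CPM with 500 µg/mL Soshiho-tang and 184 ± 23.9 CPM in vehicle (SD, n = 3 each).

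Paralogs of this family are close in sequence, and the authors' counting shared some reads between genes. Expected counts that were not whole made up 34.0% of the members' values, against 28.0% over all protein-coding genes. Every value was whole for 68 members, and 23 members had no whole value in any library. The same strand holds an overlapping protein-coding gene for 47 members and the opposite strand for 30, and the sources used here do not say whether strand was used in counting. Values of such members, among them ZNF525, which overlaps ZNF765, and ZNF587B, ZNF460, ZNF428, ZNF552 and ZNF836, are uncertain to that extent.

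With 500 µg/mL Soshiho-tang, 52 of 161 members were higher and 15 were lower than in vehicle by the quasi-likelihood test of edgeR with a Benjamini-Hochberg adjusted p below 0.05. Over all genes tested in that comparison 39.2% were called in either direction, 21% higher and 18.3% lower. The members' share of higher calls was 32.3% and of lower calls 9.32%. Their median log2 fold change was 0.10, beside -0.01 for all genes tested. At 100 µg/mL, 40 members were higher and 9 lower with a median of 0.15 (all genes: 18.2% called, 11.1% higher and 7.05% lower), and at 20 µg/mL 45 were higher and 6 lower with a median of 0.16 (all genes: 16.9% called, 10.6% higher and 6.34% lower). Leaving out the third 20 µg/mL Soshiho-tang library left 25 calls at that dose. When only the compared libraries were fitted, 8 members were called at 20 µg/mL, 17 at 100 µg/mL and 44 at 500 µg/mL. That fit has fewer libraries to estimate the spread. The share of all genes called in these alternatives is not given here, so the falls in count are not results about the members.

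Yijin-tang gave counts of the same order. At 500 µg/mL, 38 members were higher and 8 lower than in vehicle, with a median log2 fold change of 0.13 (all genes: 21% called, 12.7% higher and 8.39% lower). At 100 µg/mL, 43 were higher and 7 lower with a median of 0.15 (all genes: 18.4%, 11.1% and 7.37%). At 20 µg/mL, 41 were higher and 5 lower with a median of 0.15 (all genes: 17%, 10.3% and 6.66%). The share of members called higher was 23.6% at 500 µg/mL, 26.7% at 100 µg/mL and 25.5% at 20 µg/mL. When only the compared libraries were fitted, 10 members were called at 20 µg/mL, 15 at 100 µg/mL and 24 at 500 µg/mL, again without the share of all genes. All comparisons with vehicle use the same 3 vehicle libraries and are not independent of each other.

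Okbyeongpung-san was tested with 2 libraries per dose in a fit of its own. At 500 µg/mL, 9 members were higher and 1 lower than in vehicle (all genes: 4.38% called, 2.19% higher and 2.19% lower), with a median log2 fold change of 0.14. At 20 µg/mL, ZNF780A and ZNF776 were higher and none lower (all genes: 0.273%, 0.14% higher and 0.133% lower), with a median of 0.14. At 100 µg/mL no member was called by edgeR (all genes: 0.108%, 0.0444% higher and 0.0634% lower), and the median was 0.11. There, 45 members had an unadjusted edgeR p below 0.05, and DESeq2 called 1. The share of all genes is not given for these counts, so they are not results about the members. At 500 µg/mL the count of calls was 1 without the batch E library, 0 without the batch D library, 18 without vehicle replicate 2 and 2 without vehicle replicate 3. At 20 µg/mL it was 0 without either extract library, 0 without vehicle replicate 3, 12 without vehicle replicate 1 and 21 without vehicle replicate 2. At 100 µg/mL it was 2 without vehicle replicate 1 and 9 without vehicle replicate 2. The share of all genes called with a library left out is not given here, so these changes in count are not results about the members. Batch D held no vehicle library, so no comparison with vehicle within that batch was possible. Within batch E each dose had 1 library beside the 3 of vehicle. The fit without the batch D library compared these, but took its spread from the groups that kept replicates and has no check on the lone library.

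**Figure D1:**
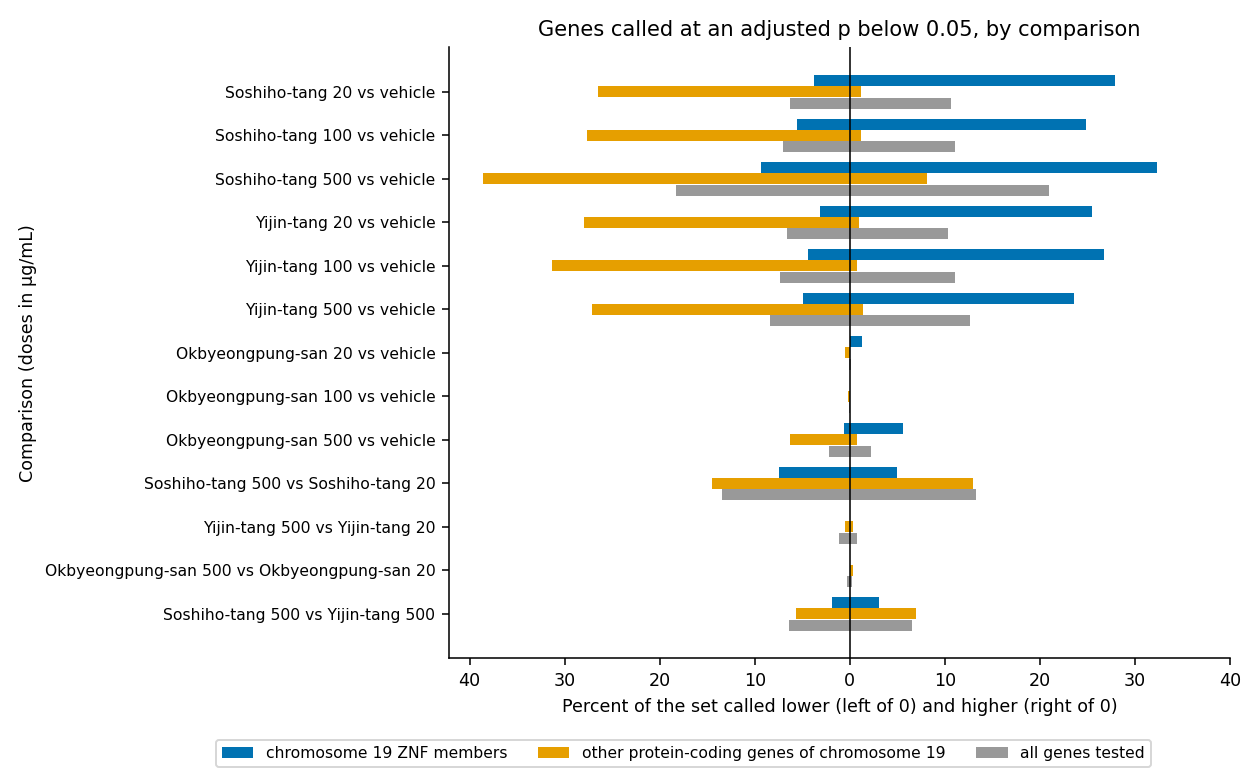
Percent of the chromosome 19 ZNF members, of the other protein-coding genes of chromosome 19 and of all genes tested that were called lower (bars left of 0) or higher (bars right of 0) in each comparison by edgeR at an adjusted p below 0.05. With 500 µg/mL Soshiho-tang against vehicle, 32.3% of members were higher and 38.6% of the other chromosome 19 genes were lower.

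The other protein-coding genes of the chromosome, wherever they lie on it, had more lower than higher calls. Of 650 such genes at 1 CPM or more, 53 were higher and 251 lower with 500 µg/mL Soshiho-tang than in vehicle. Their median log2 fold change was -0.12. With GC content in the offset, an alternative chosen after seeing the data, these became 120 higher and 130 lower, with a median of -0.003. That offset takes out any difference between libraries that follows GC content, whatever its source, so a move toward 0 in a GC-rich set is partly built in. With 20 µg/mL Soshiho-tang 8 were higher and 172 lower, with a median of -0.12, and with the offset 20 were higher and 34 lower, with a median of -0.04. ZNF genes of other chromosomes, 209 in all, had 55 higher and 34 lower at 500 µg/mL (median 0.04) and 36 higher and 11 lower at 20 µg/mL (median 0.06).

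Summed over members, libraries with extract held 2326 to 2495 CPM and vehicle libraries 2120 to 2243 CPM, with no overlap. The 123 members with a KRAB match added up to 1416 to 1579 CPM in the 27 extract libraries and to 1238 to 1329 CPM in the 3 vehicle libraries. The 38 members without a match added up to 879 to 934 CPM in extract libraries and 883 to 916 CPM in vehicle libraries, so these ranges overlapped. In bulk RNA, fewer cells of a kind and less RNA per cell cannot be told apart. For Soshiho-tang the sums with a KRAB match were 1483, 1472 and 1570 CPM at 20 µg/mL, 1518, 1477 and 1503 CPM at 100 µg/mL and 1416, 1452 and 1471 CPM at 500 µg/mL. The 500 µg/mL libraries lay below those of both lower doses, by as little as 1471 against 1472 CPM. Scaled by TMM factors, the 500 µg/mL sums of 1466 to 1507 CPM overlapped those at 20 µg/mL, 1475 to 1539 CPM.

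**Figure D2:**
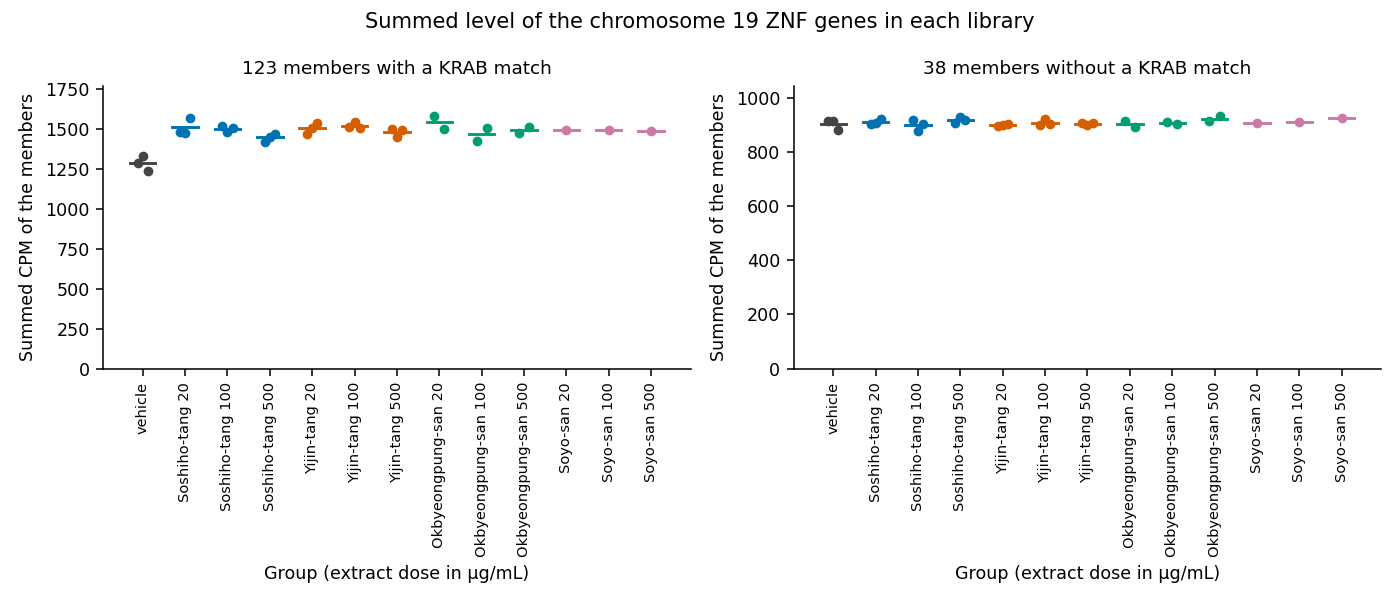
Summed CPM of the members with a KRAB match (left) and without one (right) in each of the 30 libraries, with vehicle at the low end of the doses; points are libraries and lines are group means. Extract libraries lie at 1416 to 1579 CPM on the left, above the vehicle libraries at 1238 to 1329 CPM, while the ranges overlap on the right.

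Counts of calls were also taken by KRAB match and by GC content of the transcript, with no test of the difference between these sets. With 500 µg/mL Soshiho-tang, 43 of 123 members with a match were higher than in vehicle and 1, ZNF792, was lower, and 9 of 38 without a match were higher and 14 lower. The median log2 fold change was 0.14 with a match and -0.12 without. Of 31 members under 40% GC, 15 were higher and 0 lower, and of 30 members at 50% GC or more, 3 were higher and 15 lower, with medians of 0.24 and -0.23. Of all genes tested under 40% GC, 44.7% were higher, beside 48.4% of the members, and of all genes at 50% GC or more 28.9% were lower, beside 50% of the members. Between these ranges the members' medians did not fall steadily with GC content at this dose. At 40 to 45% GC 21 of 74 were higher and 0 lower, with a median of 0.12. At 45 to 50% 13 of 26 were higher and 0 lower, with a median of 0.23. Of all genes in these 2 ranges 31.5% and 19.1% were higher, and 8.8% and 14.9% lower. With 500 µg/mL Yijin-tang 13 of the 31 low-GC members were higher and 0 lower, and 0 of the 30 GC-rich members were higher and 8 lower, where 34.6% of all genes under 40% GC were higher and 15.3% of those at 50% or more were lower.

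The medians of all genes tested fell with GC content, and at 20 µg/mL Soshiho-tang those of the members did too. With 20 µg/mL Soshiho-tang against vehicle, the median log2 fold change of all genes tested was 0.16 under 40% GC, 0.08 at 40 to 45%, 0.02 at 45 to 50% and -0.07 at 50% or more. Members in the same ranges had medians of 0.29, 0.19, 0.18 and -0.13. The mean GC content of all counted reads, weighted by gene, was 48.4 to 48.7% in extract libraries and 48.7 to 49.2% in vehicle libraries. In an alternative chosen after seeing the data, a smooth of each library's values against GC content was taken into the edgeR offset. By its construction it takes out any difference between libraries that follows GC content, whatever the source. With 500 µg/mL Soshiho-tang against vehicle, 33 members were then higher and 14 lower, 20.5% and 8.7%. Of all genes 17.7% were higher and 17.1% lower, so the members' 29.2% called was below the 34.9% of all genes. At 20 µg/mL 19 were higher and 2 lower, 11.8% and 1.24% (all genes: 9.22% called, 5.23% higher and 3.99% lower). At 100 µg/mL 23 were higher and 3 lower, 14.3% and 1.86% (all genes: 9.84% called, 5.5% higher and 4.4% lower). For Yijin-tang the members higher and lower were 19 and 3 at 500 µg/mL, 13.7% called beside 13.6% of all genes. They were 21 and 4 at 100 µg/mL (all genes: 9.6%) and 19 and 2 at 20 µg/mL (all genes: 8.82%). For Okbyeongpung-san 7 were higher and 0 lower at 500 µg/mL (all genes: 4.2%), and no member was called by edgeR at 100 µg/mL (all genes: 0.153%) or 20 µg/mL (all genes: 0.211%). The median member then differed by 0.02 at 500 µg/mL Soshiho-tang and 0.09 at 20 µg/mL, and at 500 µg/mL the median was 0.04 with a KRAB match and -0.03 without. In that fit 25 of 123 members with a match were higher and 7 lower, and 8 of 38 without a match were higher and 7 lower, so 20.3% with and 21.1% without a match were higher. What part GC content, the mitochondrial share or the separate vehicle set had in these differences was not tested.

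**Figure D3:**
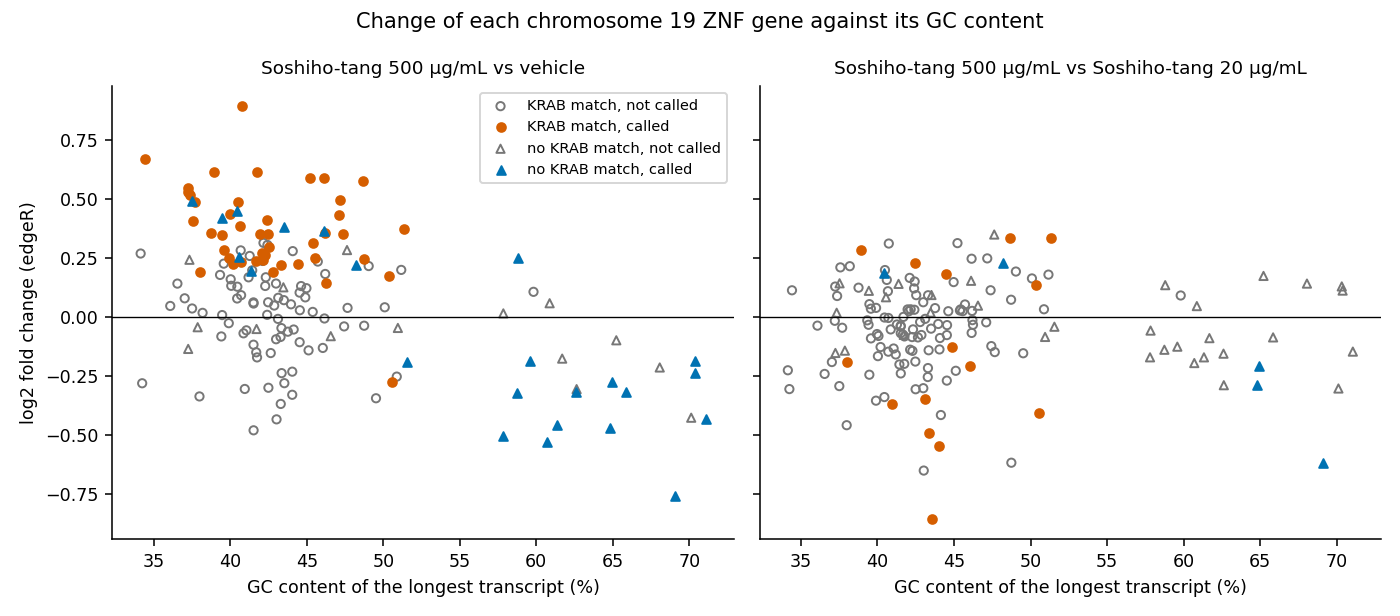
log2 fold change of each member (edgeR) against the GC content of its longest transcript, for 500 µg/mL Soshiho-tang against vehicle (left) and against 20 µg/mL Soshiho-tang (right); filled symbols were called at an adjusted p below 0.05, circles have a KRAB match and triangles do not. On the left 15 of the 30 members at 50% GC or more were called lower, and on the right 4 were.

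ZNF699 (ENSG00000196110, chr19:9294275-9309838, minus strand) had the largest rise with 500 µg/mL Soshiho-tang among the members named by rule. Positions of genes are those of GENCODE 29 on GRCh38. It measured 2.52, 2.57 and 2.20 CPM with that extract, against 1.49, 1.22 and 1.22 CPM in vehicle. Members named for their change in a comparison had to have groups that do not overlap there, so that separation is not a result. The log2 fold change was 0.89 ± 0.15 (SE, edgeR adjusted p = 2.5e-05), and 0.81 ± 0.15 with 500 µg/mL Yijin-tang (edgeR adjusted p = 0.00029). The 2 Okbyeongpung-san libraries at 500 µg/mL read 2.38 and 2.49 CPM, a log2 fold change of 0.85 ± 0.27 that did not pass (edgeR adjusted p = 0.091). The 100 µg/mL Okbyeongpung-san pair was far apart at 1.39 and 3.19 CPM.

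ZNF780A (ENSG00000197782, chr19:40069152-40090938, minus strand) was higher at every dose of Soshiho-tang and Yijin-tang. Its libraries read 24.8, 26.3 and 21.5 CPM in vehicle, 34.2, 33.5 and 39.2 CPM at 20 µg/mL Soshiho-tang, 36.1, 39.6 and 36.1 CPM at 100 µg/mL and 33.6, 33.7 and 33.5 CPM at 500 µg/mL. Every extract library, of any formula, lay above every vehicle library. The 500 µg/mL Soshiho-tang libraries lay below all those at 100 µg/mL and within the range at 20 µg/mL. Against vehicle the log2 fold change was 0.49 ± 0.06 for 500 µg/mL Soshiho-tang, 0.49 ± 0.06 for Yijin-tang and 0.59 ± 0.09 for Okbyeongpung-san (SE, edgeR adjusted p = 5.4e-07, 3.6e-06 and 0.0039). Without the batch D library the Okbyeongpung-san value was 0.55 and did not pass. Its neighbour ZNF780B was higher with 500 µg/mL Soshiho-tang than in vehicle (0.19 ± 0.07, edgeR adjusted p = 0.037) and lower than at 20 µg/mL (-0.19 ± 0.07, edgeR adjusted p = 0.049). It is the 1 member called in opposite directions in these comparisons, both of which use the 500 µg/mL libraries, and neither call was stable: that against vehicle was lost in 7 alternatives, with a value of 0.007 under the GC offset, and that against 20 µg/mL in 6, DESeq2 and RLE factors among them.

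ZNF100 (ENSG00000197020, chr19:21722766-21767628, minus strand) read 5.57, 5.15 and 5.57 CPM with 500 µg/mL Soshiho-tang, against 3.12, 3.74 and 3.48 CPM in vehicle. Its log2 fold change was 0.67 ± 0.12 (SE, edgeR adjusted p = 7.9e-05), and 0.53 ± 0.12 with 500 µg/mL Yijin-tang (edgeR adjusted p = 0.0027). With GC content in the offset the Yijin-tang value was 0.31 and did not pass (edgeR adjusted p = 0.082). ZNF525 (ENSG00000203326, chr19:53365693-53392217, plus strand) averaged 12.9 ± 0.026 CPM with 500 µg/mL Soshiho-tang and 8.56 ± 0.764 CPM in vehicle (SD, n = 3 each). This corresponds to 0.61 ± 0.08 on the log2 scale (SE, edgeR adjusted p = 2.7e-07). ZNF530, at 0.59 ± 0.15, was the last of the 4 largest rises. These 4 members all carry a KRAB match, as did 43 of the 52 members called higher. No range of theirs overlapped that of vehicle, which the naming rule required. Of all genes tested, 41.85% were separated in that way.

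ZNF431, ZNF708 and ZNF136 were named for their mean change over all doses of Soshiho-tang and Yijin-tang. ZNF431 averaged 14.4 ± 1.91 CPM with 500 µg/mL Soshiho-tang and 10.05 ± 0.765 CPM in vehicle (SD, n = 3 each). ZNF708 had a log2 fold change of 0.52 ± 0.14 and ZNF136, a KRAB repressor, of 0.44 ± 0.15 with that extract (SE, edgeR adjusted p = 0.0054 and 0.024). ZNF708 lost its call without vehicle replicate 1, at 0.27, and when only the compared libraries were fitted, and ZNF136 lost its call in 7 alternatives. ZNF160, which has been reported to repress TLR4 with TRIM28 in intestinal epithelial cells, is named after seeing its values for that role. It averaged 25.6 ± 2.18 CPM with 500 µg/mL Soshiho-tang, 26.6 ± 0.418 CPM with 500 µg/mL Yijin-tang and 22.0 ± 2.01 CPM in vehicle (SD, n = 3 each), and was higher than vehicle by 0.24 ± 0.08 and 0.26 ± 0.08 on the log2 scale (SE, edgeR adjusted p = 0.015 for each).

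ZNF444 (ENSG00000167685, chr19:56132599-56160893, plus strand) was lower with both formulas. This SCAN domain protein is known from endothelial cells, where it binds the promoter of a scavenger receptor gene. It read 30.6, 30.2 and 28.2 CPM with 500 µg/mL Soshiho-tang and 33.4, 35.4 and 31.6 CPM with 500 µg/mL Yijin-tang, against 48.2, 40.2 and 38.7 CPM in vehicle. No extract library of these groups reached the vehicle range, as the naming rule required. The log2 fold change was -0.51 ± 0.07 for Soshiho-tang and -0.37 ± 0.07 for Yijin-tang (SE, edgeR adjusted p = 1.0e-06 and 0.00026), and it stayed past the threshold for both with GC content in the offset.

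ZNF865 (ENSG00000261221, chr19:55605405-55617269, plus strand) read 33.0, 34.9 and 35.9 CPM with 500 µg/mL Soshiho-tang, 38.0, 39.9 and 35.6 CPM with 500 µg/mL Yijin-tang and 36.7 and 34.9 CPM with 500 µg/mL Okbyeongpung-san, against 53.2, 43.6 and 43.8 CPM in vehicle. It was the 1 member called lower with Okbyeongpung-san, by -0.42 ± 0.09 on the log2 scale (SE, edgeR adjusted p = 0.022), a call lost in 5 alternatives. With GC content in the offset this became -0.20 and the Yijin-tang value of -0.33 became -0.15, and neither passed. ZNF628, needed in mice for male fertility, was lower by -0.35 ± 0.08 with 500 µg/mL Yijin-tang (SE, edgeR adjusted p = 0.0024) and by -0.16 with GC content in the offset, which did not pass. ZNF428 was lower by -0.46 ± 0.07 and -0.34 ± 0.07 with 500 µg/mL Soshiho-tang and Yijin-tang, and stayed past the threshold under that offset.

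ZNF358 and ZNF784 were lower with 500 µg/mL Soshiho-tang, by -0.76 ± 0.19 and -0.47 ± 0.09 on the log2 scale (SE, edgeR adjusted p = 0.0024 and 0.00018). ZNF358 read 2.30, 1.36 and 1.32 CPM with that extract, against 2.71, 2.95 and 2.82 CPM in vehicle, with 1 extract library near the vehicle range. With 500 µg/mL Yijin-tang the same genes differed from vehicle by -0.30 ± 0.18 and -0.21 ± 0.09 (SE), and neither passed (edgeR adjusted p = 0.25 and 0.1). Whether the formulas differed for these genes was tested directly: the Soshiho-tang to Yijin-tang differences were -0.45 ± 0.20 and -0.27 ± 0.10 (SE), and neither passed (edgeR adjusted p = 0.15 and 0.071).

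The remaining members named with Okbyeongpung-san at 500 µg/mL were ZNF460, ZNF507 and ZNF587B. ZNF507 read 57.7 and 56.6 CPM, against 40.1, 47.1 and 40.9 CPM in vehicle, a log2 fold change of 0.39 ± 0.08 (SE, edgeR adjusted p = 0.018) whose call was lost in 4 alternatives. ZNF587B averaged 41.3 ± 0.350 CPM (SD, n = 2), against 31.7, 30.8 and 30.4 CPM in vehicle, a log2 fold change of 0.38 ± 0.07 (SE, edgeR adjusted p = 0.01) whose call was lost without either extract library. ZNF460 was higher by 0.61 ± 0.16 (SE, edgeR adjusted p = 0.047) and lost its call in 6 alternatives. ZNF77, named with 500 µg/mL Yijin-tang, was higher by 0.50 ± 0.15 (SE, edgeR adjusted p = 0.017) and lost its call in 4.

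**Figure D4:**
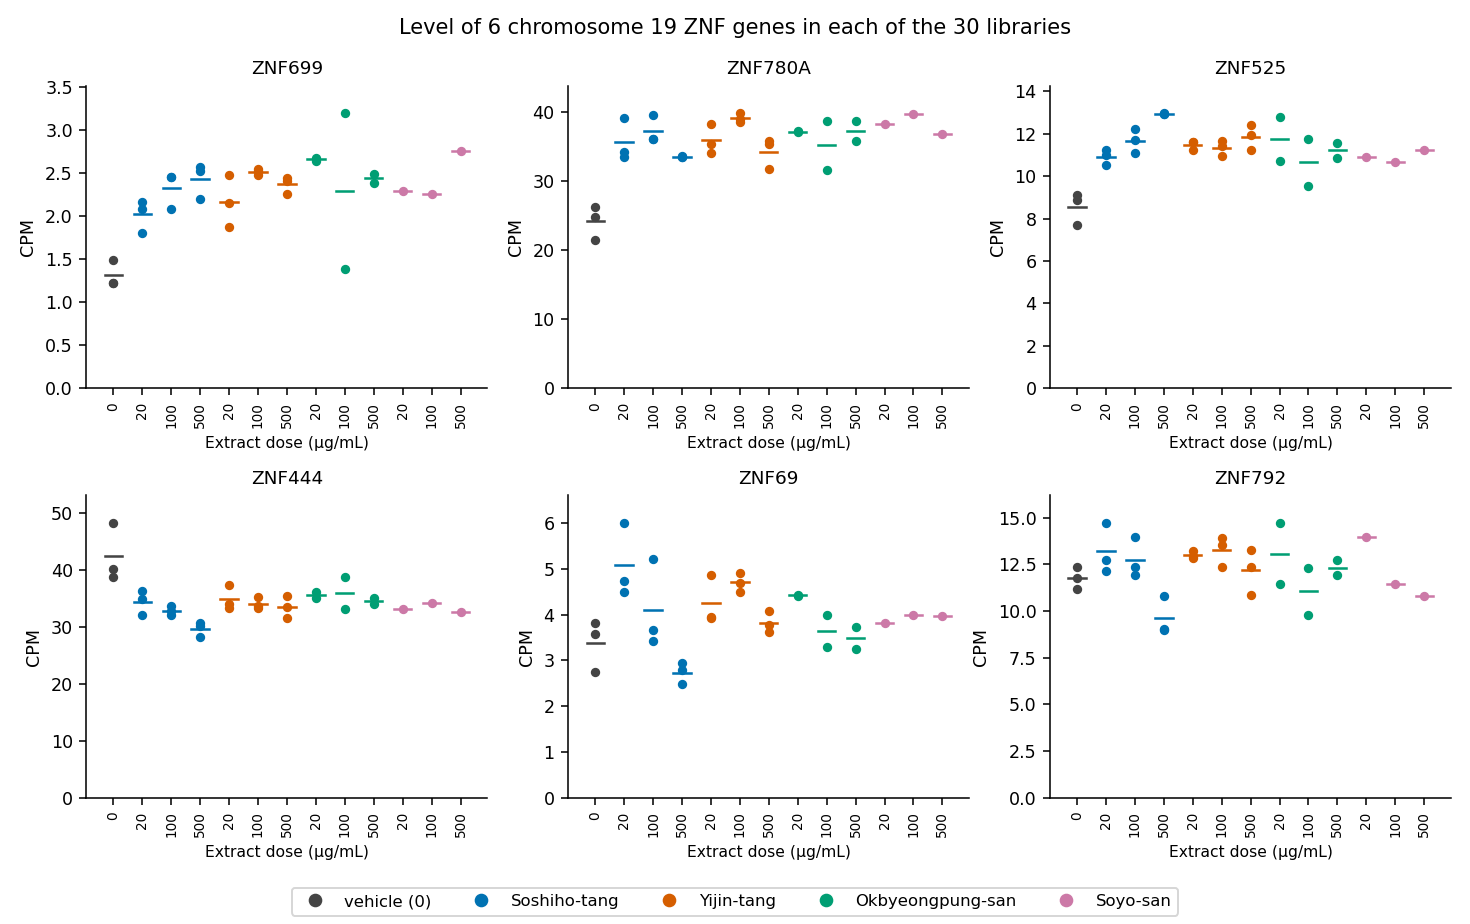
CPM of 6 members in each of the 30 libraries, by formula and dose in µg/mL, with vehicle as dose 0; points are libraries and lines are group means. ZNF699, ZNF780A and ZNF525 lie higher and ZNF444 lower than vehicle at each Soshiho-tang and Yijin-tang dose, while ZNF69 and ZNF792 are lowest at 500 µg/mL Soshiho-tang.

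The comparison within a formula does not use the level of the vehicle libraries, which enter only the shared estimate of the spread. Between 500 and 20 µg/mL Soshiho-tang, 8 members were higher at the high dose and 12 lower, while 26.8% of all genes tested were called, 13.3% higher and 13.5% lower. The members' share of 12.4% was below that background. Their median log2 fold change was -0.04, beside -0.01 for all genes tested. With GC content in the offset 11 members were higher and 20 lower (all genes: 29%). With Yijin-tang no member was called by edgeR (all genes: 1.86%, 0.724% higher and 1.13% lower), 14 had an unadjusted p below 0.05, and DESeq2 called 0. With Okbyeongpung-san none was called by edgeR (all genes: 0.558%, 0.247% higher and 0.311% lower), 5 had an unadjusted p below 0.05, and DESeq2 called 0. For neither formula is the share of all genes at that unadjusted limit given here, so these counts are not results about the members. The median member changed by -0.01 between 500 and 20 µg/mL Yijin-tang and by -0.02 for Okbyeongpung-san.

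**Figure D5:**
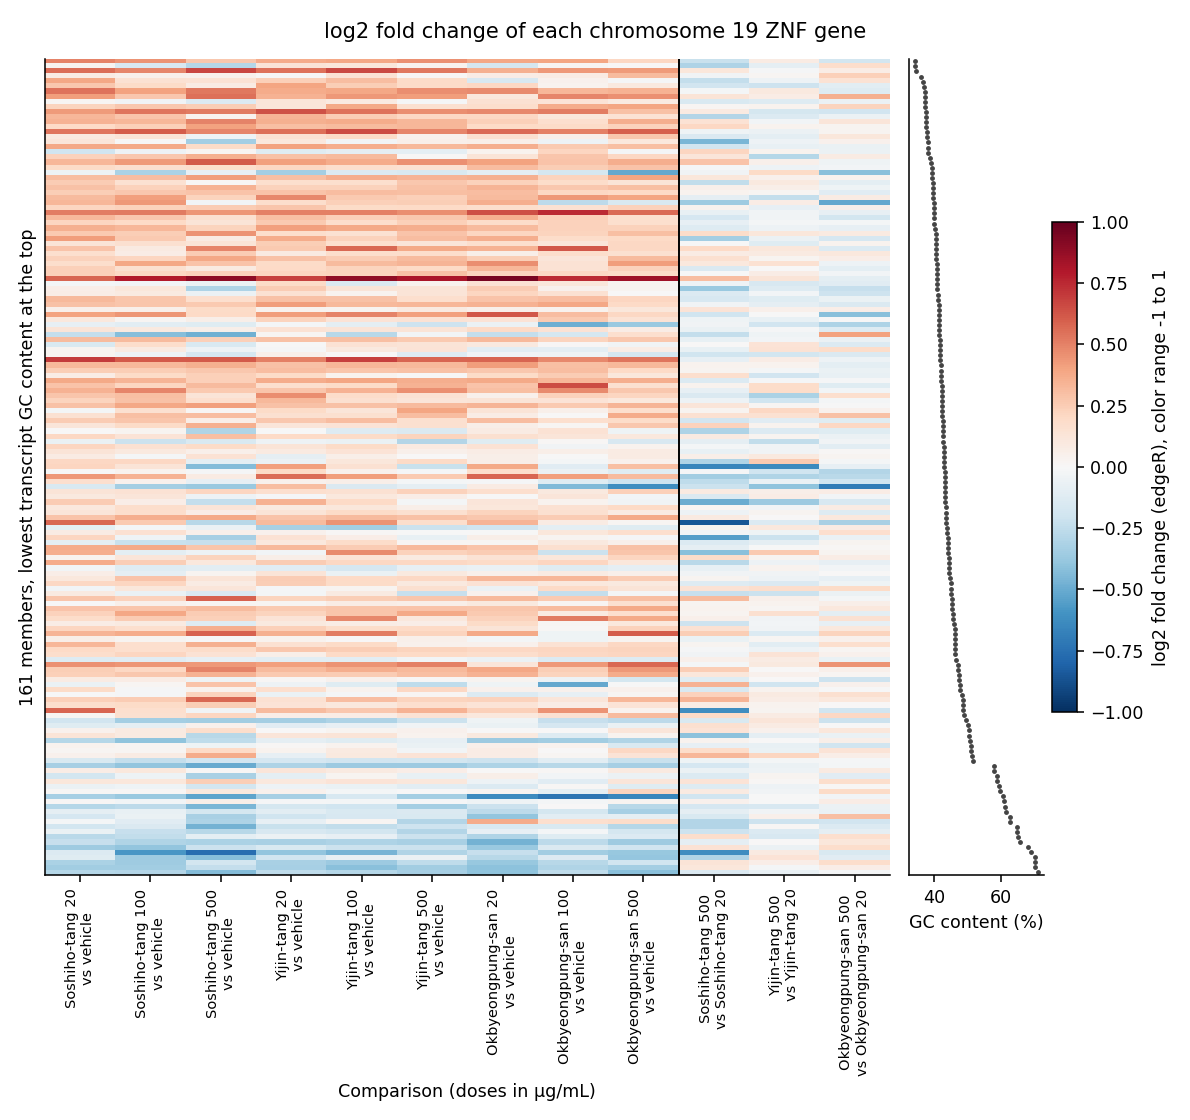
Fitted log2 fold change (edgeR, color) of each of the 161 members, one per row from low to high GC content, in 9 comparisons with vehicle and 3 between 500 and 20 µg/mL of a formula; the strip on the right gives GC content. Columns left of the line share the vehicle libraries and are mostly red above and blue in the lowest rows, where GC content is 50% or more; columns right of the line are paler, with the strongest color at ZNF69 in Soshiho-tang (-0.86).

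ZNF69 (ENSG00000198429, chr19:11887784-11914329, plus strand) fell most between 500 and 20 µg/mL Soshiho-tang. It read 4.74, 4.49 and 6.00 CPM at 20 µg/mL, 5.21, 3.42 and 3.66 CPM at 100 µg/mL and 2.48, 2.79 and 2.93 CPM at 500 µg/mL, beside 2.74, 3.82 and 3.59 CPM in vehicle. The 500 µg/mL libraries lay below every 20 µg/mL library, as the naming rule required, and overlapped the vehicle range. The log2 fold change of 500 against 20 µg/mL was -0.86 ± 0.16 (SE, edgeR adjusted p = 0.00013), and that of 500 µg/mL against vehicle, -0.28 ± 0.16, did not pass (edgeR adjusted p = 0.18).

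ZNF792 (ENSG00000180884, chr19:34956354-34964049, minus strand) read 12.7, 12.1 and 14.7 CPM at 20 µg/mL, 12.4, 11.9 and 13.9 CPM at 100 µg/mL and 8.98, 10.8 and 9.05 CPM at 500 µg/mL, beside 12.4, 11.8 and 11.2 CPM in vehicle. The 500 µg/mL libraries were below all the others of Soshiho-tang and vehicle. Its log2 fold change was -0.41 ± 0.09 against 20 µg/mL and -0.28 ± 0.09 against vehicle (SE, edgeR adjusted p = 0.00073 and 0.011). The other named falls were ZNF846, at -0.55 ± 0.15, and ZNF599, at -0.49 ± 0.17 (SE, edgeR adjusted p = 0.008 and 0.029). ZNF846 lost its call without the first 500 µg/mL library, at -0.41, and ZNF599 in 5 alternatives.

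Among the rises between these doses, ZNF562 (ENSG00000171466, chr19:9641808-9675086, minus strand) read 46.3, 47.0 and 47.5 CPM at 20 µg/mL, 51.5, 47.8 and 48.1 CPM at 100 µg/mL and 51.2, 52.9 and 56.9 CPM at 500 µg/mL. The high-dose and low-dose libraries did not overlap, as the naming rule required and as held for 41.24% of all genes tested. The log2 fold change was 0.23 ± 0.06 (SE, edgeR adjusted p = 0.0038). ZNF525 was higher by 0.28 ± 0.08 and ZNF805 by 0.34 ± 0.11 (SE, edgeR adjusted p = 0.0055 and 0.021). The ZNF805 call was lost in 5 alternatives, DESeq2 and no filter among them. ZNF274, whose protein brings SETDB1 to the 3' ends of zinc finger genes, read 11.0, 9.76 and 10.6 CPM at 500 µg/mL and 8.99, 8.62 and 7.97 CPM at 20 µg/mL. Its log2 fold change was 0.33 ± 0.10 (SE, edgeR adjusted p = 0.01), and the call was lost without the third 20 µg/mL library, at 0.28, or without the first 500 µg/mL library, also at 0.28.

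Promoters are shown for the 4 named members whose change between 500 and 20 µg/mL Soshiho-tang passed in every alternative, ZNF69 and ZNF792 among the falls and ZNF525 and ZNF562 among the rises. Each window spans 300 bases around the gene's RefSeq start (GRCh38.p14), most of them upstream. Capitals mark the core of the xenobiotic response element, GCGTG, or its reverse complement, CACGC, bound by AHR and its partner, and the core of the antioxidant response element, TGACNNNGC, or its reverse complement, GCNNNGTCA, bound by NRF2 and small MAF proteins. These motifs were searched because plant extracts are common sources of AHR and NRF2 ligands and activators.
ZNF69 (chr19:11887532-11887831, plus strand): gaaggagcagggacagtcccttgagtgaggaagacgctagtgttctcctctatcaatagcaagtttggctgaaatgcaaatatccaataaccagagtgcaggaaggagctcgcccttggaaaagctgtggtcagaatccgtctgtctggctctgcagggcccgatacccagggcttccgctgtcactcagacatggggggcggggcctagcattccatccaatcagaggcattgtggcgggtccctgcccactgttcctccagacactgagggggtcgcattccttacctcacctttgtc
ZNF792 (chr19:34964180-34964479, minus strand): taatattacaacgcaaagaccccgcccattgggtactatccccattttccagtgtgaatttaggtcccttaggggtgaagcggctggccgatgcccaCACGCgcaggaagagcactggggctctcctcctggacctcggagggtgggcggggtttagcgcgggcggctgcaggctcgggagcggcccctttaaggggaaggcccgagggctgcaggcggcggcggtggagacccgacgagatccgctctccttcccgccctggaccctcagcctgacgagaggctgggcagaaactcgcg
ZNF525 (chr19:53365455-53365754, plus strand): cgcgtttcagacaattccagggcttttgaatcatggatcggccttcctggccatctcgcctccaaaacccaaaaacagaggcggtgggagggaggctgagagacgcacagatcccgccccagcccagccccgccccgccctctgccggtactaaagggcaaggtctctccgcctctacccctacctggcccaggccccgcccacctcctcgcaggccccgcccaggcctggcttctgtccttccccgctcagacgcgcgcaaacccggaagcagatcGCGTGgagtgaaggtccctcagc
ZNF562 (chr19:9675051-9675350, minus strand): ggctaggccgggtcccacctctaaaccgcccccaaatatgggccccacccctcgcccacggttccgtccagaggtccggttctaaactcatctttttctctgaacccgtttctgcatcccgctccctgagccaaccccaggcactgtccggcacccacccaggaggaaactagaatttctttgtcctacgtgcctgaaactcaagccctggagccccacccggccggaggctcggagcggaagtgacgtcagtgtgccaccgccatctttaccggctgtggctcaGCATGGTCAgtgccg
The ZNF792 and ZNF525 windows each held 1 xenobiotic response core, and the ZNF562 window held 1 antioxidant response core. The ZNF69 window held neither. Over the table, 143 members had 174 windows, 18 members had none, 48.9% of the members' windows held the first core and 12.6% the second, against 36.5% and 13.3% of all 35116 windows. A match is a description of letters and not a site.

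Soshiho-tang and Yijin-tang were compared directly at 500 µg/mL. Of the members, 5 were higher with Soshiho-tang and 3 lower, while 12.9% of all genes tested were called, 6.54% higher and 6.38% lower. ZNF473, whose protein takes part in histone pre-mRNA processing with the U7 particle, read 43.8, 41.1 and 42.0 CPM with Soshiho-tang and 35.9, 37.9 and 39.0 CPM with Yijin-tang, beside 37.4, 37.5 and 34.8 CPM in vehicle. Its log2 difference was 0.20 ± 0.05 (SE, edgeR adjusted p = 0.0092). The ranges did not overlap, as the naming rule required and as held for 31.74% of all genes tested. ZNF792 was lower with Soshiho-tang by -0.31 ± 0.09, ZNF836 by -0.43 ± 0.14 and ZNF552 by -0.20 ± 0.06 (SE, edgeR adjusted p = 0.017, 0.033 and 0.032). Each of these 8 calls was lost in at least 2 alternatives. The count also changed when a library was left out, where the share of all genes is not given here.

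Soyo-san had 1 library per dose, so its values have no replicate check and no test. The median member differed from the vehicle mean by 0.11 at 20 µg/mL, 0.13 at 100 µg/mL and 0.13 at 500 µg/mL on a log2 CPM scale with a prior count of 2. The vehicle libraries' own medians spread with an SD of 0.03 around their mean. Of the 161 members, 85, 88 and 84 lay above all 3 vehicle libraries at these doses and 20, 26 and 26 below, where over all genes tested 35.5%, 32.8% and 32.4% lay above and 20.9%, 21.9% and 27.4% below. ZNF699 read 2.29, 2.25 and 2.75 CPM and ZNF444 33.1, 34.2 and 32.6 CPM in these libraries.

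The members lie in 14 stretches of chromosome 19 separated by at least 1 Mb without such a gene. The largest, chr19:55476332-58481230 from ZNF628 to ZNF446, holds 45 members, of which 16 were higher and 9 lower with 500 µg/mL Soshiho-tang than in vehicle, where 21% of all genes were higher and 18.3% lower. The stretch chr19:51571298-53580269 from ZNF175 to ZNF331 holds 26 members, 25 with a KRAB match, of which 9 were higher and 0 lower. In chr19:19668796-24129961 from ZNF101 to ZNF254, where the median GC content was 37.3%, 6 of 15 were higher and 0 lower. In chr19:43525497-45076588, from ZNF575 to ZNF296, 5 of 21 were higher and 3 lower. Of 8 members in chr19:36182060-37817300, from ZNF565 to ZNF573, 1 was higher and 0 lower.

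Genes that work with KRAB zinc finger proteins were read from a list of 26 corepressor, HP1, HUSH and histone methylation genes. TRIM28 averaged 580 CPM with 500 µg/mL Soshiho-tang and 604 CPM in vehicle, a log2 fold change of -0.05 ± 0.04 that did not pass (SE, edgeR adjusted p = 0.38). It was lower than in vehicle at 20 and 100 µg/mL Soshiho-tang, by -0.12 ± 0.04 and -0.17 ± 0.04, and at 20 and 100 µg/mL Yijin-tang, by -0.12 ± 0.04 and -0.14 ± 0.04 (SE, edgeR adjusted p = 0.048, 0.0037, 0.048 and 0.021). With 500 µg/mL Soshiho-tang 10 of the 26 were higher than in vehicle and 2, EHMT2 and CHD3, lower, which is 46.2% called against 39.2% of all genes. With GC content in the offset 4 were higher and 2 lower, 23.1% against 34.9% of all genes. At 100 and 20 µg/mL Soshiho-tang 42.3% and 50% were called against vehicle, beside 18.2% and 16.9% of all genes. Under the GC offset these became 11.5% and 15.4%, beside 9.84% and 9.22%. For Yijin-tang 42.3%, 50% and 46.2% were called at 500, 100 and 20 µg/mL, beside 21%, 18.4% and 17% of all genes. What lies behind these shares was not tested. With 500 µg/mL Soshiho-tang the nucleosome remodeller SMARCAD1 was higher than in vehicle by 0.31 ± 0.06 (SE, edgeR adjusted p = 0.0003). The DNA methylation cofactor UHRF1 was higher in the same comparison by 0.25 ± 0.04 (SE, edgeR adjusted p = 3.0e-05). Between 500 and 20 µg/mL Soshiho-tang 3 were higher and 4 lower, 26.9% against 26.8% of all genes. SETDB1 was higher than in vehicle at 20 and 100 µg/mL Soshiho-tang, by 0.14 ± 0.05 and 0.15 ± 0.05 (SE, edgeR adjusted p = 0.049 and 0.029), and its difference at 500 µg/mL, 0.01 ± 0.05, did not pass (edgeR adjusted p = 0.84).

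The members' coefficient of variation within a group had a median of 9.54% in vehicle and 5.13 to 7.95% in extract groups. On simulated counts for 500 against 20 µg/mL Soshiho-tang, the fit recovered 36% of genes changed 1.2-fold and 60% of those changed 1.5-fold, and for Okbyeongpung-san 6% and 58%. The changed genes were drawn at random from all genes tested, whose median was 17.3 CPM, against 7.33 CPM for the members. Recovery among the members themselves was not simulated.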

How the data were processed

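RNA-seq libraries of the 30 samples were read as 100 bp pairs, per the labels' protocols. The values deposited by the authors are expected counts per gene, which need not be whole. The submitters' processing notes name RSEM 1.3.3, STAR 2.7.3a, Trim Galore 0.6.5, FastQC 0.11.9 and GRCh38, with no order of steps. Which annotation release they used is not given in the sources used here. In all, the deposited table holds 60675 genes. Its 30 columns that match a library of the labels were used, and 30 other columns were not. Of the gene IDs, 56558 had a symbol and 57055 matched GENCODE 29, which gave positions, exon lengths, GC content and coding sequences. Protein tables were not used here. The KRAB match was first searched with a stricter letter pattern (102 members) and then with a wider one (123), chosen after the first was seen to miss members.

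Expected counts were rounded and tested with the quasi-likelihood test of edgeR 4.0.16 (R 4.3.3), with its default filter, TMM factors and Benjamini-Hochberg adjustment over all genes tested. One fit held vehicle, Soshiho-tang and Yijin-tang (15882 genes), another vehicle and Okbyeongpung-san (15762 genes). Every member passed the filter in both fits. Level cutoffs use the mean over all 30 libraries. Members and lists were chosen with earlier results of these data known. Members named by rule are, per comparison and direction, up to 4 with the largest fold change among those called, at 2 CPM or more and with groups that do not overlap; the 6 highest per kb; the 6 with the largest mean change among those called in 1 direction at all doses of Soshiho-tang and Yijin-tang; and any called in opposite directions. Alternatives were DESeq2 1.42.0, RLE factors, no filter, only the compared libraries, a replicate block, leaving out each library, and GC content in the offset. The fits were tested on simulated data. Wortmannin libraries were not analysed here. Counts limit precision by counting error and the spread between libraries; molecules were not counted individually.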

Additional observations from a re-analysis of the deposited data

Results flagged for a closer look

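The following members differed between Soshiho-tang and Yijin-tang at 500 µg/mL by a direct test of the difference between formulas (edgeR, adjusted p below 0.05, log2 difference of Soshiho-tang minus Yijin-tang). ZNF805 differed by 0.352, ZNF57 by 0.312, ZNF473 by 0.2, ZNF562 by 0.194 and ZNF121 by 0.164. ZNF836 differed by -0.432, ZNF792 by -0.309 and ZNF552 by -0.196. Each of these 8 calls was lost in at least 2 alternatives. In CPM, ZNF57 read 7.21, 8.51 and 9.05 with Soshiho-tang and 6.45, 7.26 and 6.75 with Yijin-tang, so its groups overlapped. Those of ZNF121 overlapped too, at 85.2, 88.4 and 95.7 CPM with Soshiho-tang and 80.2, 79.2 and 85.8 CPM with Yijin-tang. ZNF805 read 5.97, 5.29 and 6.21 CPM with Soshiho-tang and 4.61, 4.24 and 5.00 CPM with Yijin-tang, and ZNF836 read 2.88, 2.32 and 2.25 CPM with Soshiho-tang and 3.40, 3.73 and 3.18 CPM with Yijin-tang. Over all genes tested 12.9% were called in this comparison, against 8 of 161 members.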

How the results depend on the processing

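Of 43 values named by gene and comparison, 21 kept their call and direction under every alternative other than the GC offset, 22 lost the call under at least 1, and none reversed. With GC content in the offset 36 kept their call and 7 lost it. Fitting only the compared libraries gave 44, 17 and 8 members called against vehicle for Soshiho-tang at 500, 100 and 20 µg/mL, 24, 15 and 10 for Yijin-tang, 2 for Okbyeongpung-san at 500 and 1 at 20 µg/mL, 1 between the Yijin-tang doses, 2 between the Okbyeongpung-san doses and 13 between formulas; this fit has fewer libraries to estimate the spread. With GC content in the offset the counts were 26 and 21 for 100 and 20 µg/mL Soshiho-tang, 22, 25 and 21 for 500, 100 and 20 µg/mL Yijin-tang, 0 for 20 µg/mL Okbyeongpung-san and 31 between the Soshiho-tang doses. Without the filter Okbyeongpung-san gave 24, 7 and 25 at 500, 100 and 20 µg/mL. DESeq2 gave 1 and 10 at 100 and 20 µg/mL Okbyeongpung-san, 11 between the Soshiho-tang doses and 4 between formulas. For these the cause was not tested. Other than for the GC offset, shares of all genes called under the alternatives are not given here, also where a library was left out. Changes in these counts are therefore not results about the members. Replicate numbers did not pair the libraries (correlations of same-numbered deviations of -0.07 to 0.06), and the replicate block gave 1 and 8 calls at 100 and 20 µg/mL Okbyeongpung-san.

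Leaving out 1 library gave 52 to 68, 35 to 47 and 25 to 51 calls for Soshiho-tang at 500, 100 and 20 µg/mL against vehicle, 32 to 49, 34 to 57 and 31 to 54 for Yijin-tang, and 0 to 18, 0 to 9 and 0 to 21 for Okbyeongpung-san. Between doses the range was 11 to 19 for Soshiho-tang and 0 to 0 for Yijin-tang and for Okbyeongpung-san, and between formulas 0 to 6. The Soshiho-tang dose count was 13 without 20 µg/mL replicate 2, and 11 without 500 µg/mL replicate 1 and 12 without replicate 3. Without TMM the Soyo-san medians were 0.16 at 20 µg/mL and 0.17 at 100 µg/mL. Where a dose had 2 libraries, the lone one left was taken to vary like the other groups.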
